A study of Oreochromis niloticus with 21 samples.

Results

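Liver RNA of Nile tilapia (Oreochromis niloticus), a tropical fish, was sequenced from fish 6 months old that had been kept for 12 h at 28, 18 or 10 °C, with 1 library per temperature. The liver genes are the 4854 of 17098 genes in the files whose level reached an RPKM of 5 in at least 1 of these 3 libraries. RPKM scales the reads of a gene to its length and to a library size, so levels can be compared between genes. Brain, gill, heart, kidney, muscle and spleen were sampled at the same temperatures, also with 1 library each, and serve as the comparison. The labels name no strain and no treatment other than temperature. They do not say how many fish gave RNA or whether 1 fish gave several tissues, so temperature, fish and preparation cannot be told apart within liver. In such whole-tissue RNA, fewer cells of a type and less RNA per cell cannot be told apart either.

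In fish, as in other vertebrates, hepatocytes make most plasma proteins, including the lipid carriers and clotting factors, and they store and release sugar and fat. A few such transcripts make up a large part of liver RNA. Fish do not hold a constant body temperature, so a liver at low temperature works with slower enzymes and stiffer membranes, and fish livers are known to change membrane lipid, sugar and protein-folding genes in the cold. The files identify genes by Ensembl ID alone and 0 of these IDs matched the RefSeq table used here, so no gene below has a name or a known role, and the lists of liver, pancreas, blood and cold-response genes could not be looked up. The liver label was therefore not checked against marker genes.

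The 3 liver libraries held 1485997 reads on genes in the 28 °C sample, 458303 in the 18 °C and 478471 in the 10 °C sample. In a gene of 1 kb a single read was worth an RPKM of 0.945 in the 28 °C library, 1.13 in the 18 °C and 1.21 in the 10 °C library, so genes near the minimum rest on a handful of reads. Of the 4854 genes, 3426 had at least 20 reads in their highest library and 2039 reached an RPKM of 5 in all 3. The values just inside and just outside the minimum lie together: 524 liver genes had a highest RPKM from 5 to 6, and 735 genes outside had one from 4 to 5. At 0 reads were 168 of the liver genes in the warm library, 199 in the 18 °C and 334 in the 10 °C library.

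The liver transcriptome was concentrated on few genes, and most strongly so at 28 °C. There 34 genes held 50% of the reads, against 85 at 18 °C and 67 at 10 °C. The 10 leading genes took 31.4% of the warm library's reads, 21.2% in the 18 °C and 23.3% in the 10 °C library. Of the 100 most-read genes of each library, 87 were shared by the cold livers, whereas the warm liver shared 54 with the 18 °C and 52 with the 10 °C liver. All 3 libraries had 50 of them in common, and 44 of the 100 leading genes at 28 °C were not among the leaders in either cold library.

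Both genes with the highest mean share of liver reads were nearly silent elsewhere. ENSONIG00000017080 had an RPKM of 31444 at 28 °C, 10925 at 18 °C and 12264 at 10 °C, and at most 9.50 in the 18 libraries of the other tissues. Its share of liver reads hardly moved, at 3.19%, 3.01% and 3.03%. ENSONIG00000014102 showed the opposite, with an RPKM of 4506, 4264 and 4582 at 28, 18 and 10 °C but a share of reads of 1.49%, 3.83% and 3.68%. RPKM and share of reads thus give different folds for the same gene. The deposited RPKM was not scaled by the reads on genes: its values correspond to a library size of 1058183, 886992 and 828356 at 28, 18 and 10 °C, against the 1485997, 458303 and 478471 reads above, and how the authors set it is not stated in the labels. The summed RPKM was 1028634 at 28 °C against 276809 at 18 °C and 335145 at 10 °C.

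On the deposited RPKM scale most differences from 28 °C were decreases. Differences are given on the log2(RPKM + 1) scale, which understates those of low genes, and a gene was counted as differing at a difference of 1 or more, which is 2-fold. With 1 library each no test within liver was possible. Between 18 and 28 °C, 3020 of the 4854 genes differed, 1078 (22.2%) higher and 1942 (40.0%) lower at 18 °C. That is 62.2% of the liver genes, and over all genes in the files the share was 29.0%. A gene under an RPKM of 1 in every liver library cannot differ 2-fold on this scale, which lowers the share over all genes. Of the 10091 genes that reached an RPKM of 1 in at least 1 liver library, 4954 (49.1%) differed. Between 10 and 28 °C, 3016 differed, 1010 (20.8%) higher and 2006 (41.3%) lower at 10 °C. That is 62.1% of liver genes, against 48.4% of the 10091 genes and 28.6% of all genes. Between 10 and 18 °C 1071 differed, 413 (8.51%) higher and 658 (13.6%) lower at 10 °C. That is 22.1% of liver genes, 24.4% of the 10091 genes and 14.4% of all genes. Spearman's rho over the liver genes was 0.756 for the cold pair of livers, 0.404 for 28 with 18 °C and 0.427 for 28 with 10 °C; genes are not independent replicates.

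**Figure D1:**
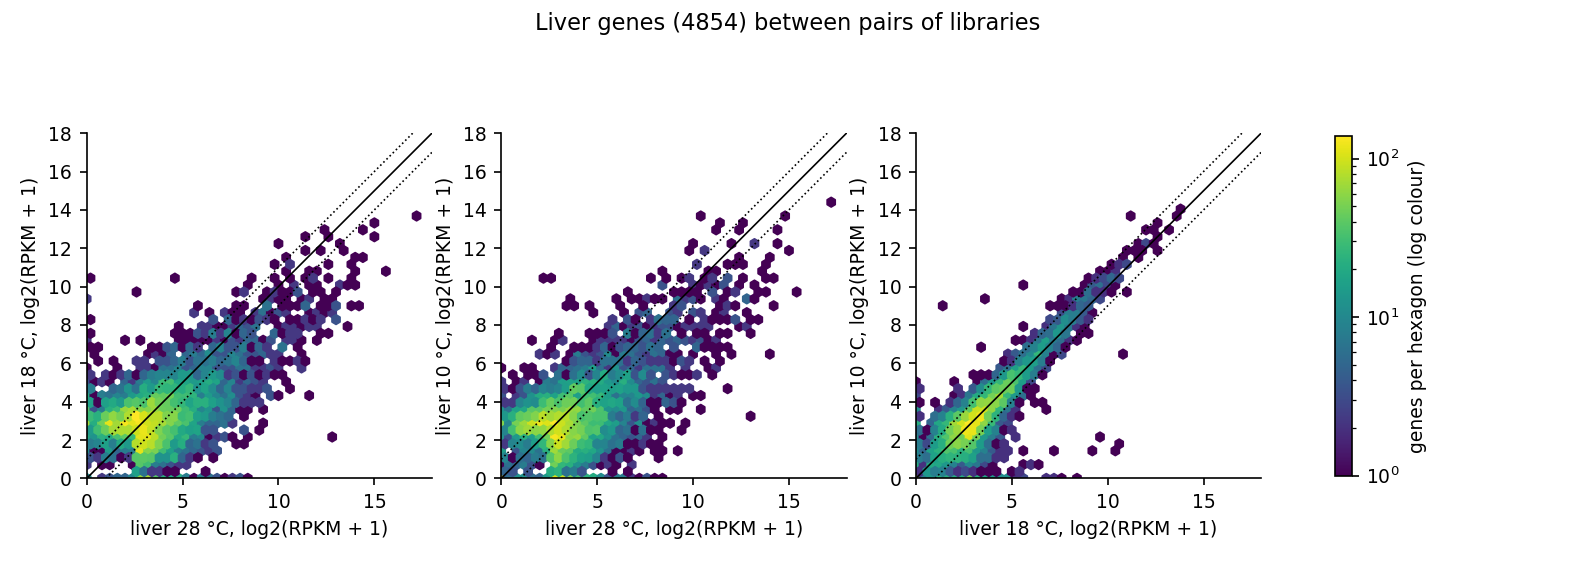
Level of each of the 4854 liver genes in pairs of libraries, as log2(RPKM + 1) on both axes, with colour for the number of genes per hexagon on a log scale. The solid line marks equal levels and the dotted lines a 2-fold difference. In the 18 against 10 °C panel 22.1% of genes lie beyond the dotted lines, and in the panels with 28 °C 62.2% and 62.1% do.

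The balance of higher and lower genes turned with the scale. The median liver gene was lower by -0.47 at 18 °C and by -0.55 at 10 °C than at 28 °C, and differed by -0.01 between 10 and 18 °C. Relative to these medians, which balances the split by construction, 1496 genes were higher and 1484 lower at 18 than at 28 °C, and 1441 were higher and 1501 lower at 10 than at 28 °C. When every library was scaled to the same summed RPKM, 2540 genes reached an RPKM of 5 and the median gene was 1.39 higher at 18 °C and 0.92 higher at 10 °C than at 28 °C. On that scale 1488 genes were higher and 359 lower at 18 than at 28 °C, and 1225 were higher and 433 lower at 10 than at 28 °C. Between 10 and 18 °C 421 genes were higher and 647 lower relative to the median, and 98 were higher and 413 lower at equal sums. Among genes with an RPKM of 5 in all 3 livers, 98 were higher and 82 lower. That filter removes genes low in any 1 of the libraries. Liver genes at 0 numbered 168 at 28 °C, 199 at 18 °C and 334 at 10 °C. Their part in this split was not tested.

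On the deposited RPKM scale the distance of the 28 °C library grew with expression level. Among the 437 genes whose RPKM averaged 100 or more over the 3 libraries, 71.9% differed at 18 against 28 °C, 72.8% at 10 against 28 °C and 12.4% at 10 against 18 °C. Among the 3533 genes with a mean under 20, these shares were 59.8%, 59.4% and 24.9%. The median difference of the highly expressed genes was -1.58 at 18 against 28 °C, -1.36 at 10 against 28 °C and 0.23 at 10 against 18 °C. On this scale highly expressed genes thus separated the cold livers from the warm one most often, and differed between the cold livers least often. The levels were not grouped on the other scales, and the mean that groups them includes the 28 °C value itself.

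The 3 differences of a gene sort it by which temperature stands apart. The largest class set 28 °C apart: 2019 genes, 41.6% of liver genes, differed at least 2-fold from 28 °C in the same direction in both cold libraries and less than 2-fold between them. Of these, 631 were higher in the cold, with a median RPKM of 2.20, 10.7 and 11.4 at 28, 18 and 10 °C. The other 1388 were lower in the cold, with a median RPKM of 27.6 at 28 °C and 4.71 at 10 °C, and a median log2 difference of -2.22 at 18 against 28 °C. Both differences of such a gene use the same 28 °C library, so their shared direction is no second observation. The 1388 lower genes, 28.6% of liver genes, held 65.8% of all reads in the warm liver, 27.4% in the 18 °C and 26.9% in the 10 °C liver. Of the 100 most-read genes at 28 °C, 73 were among them. Genes picked as higher at 28 °C tend to have more reads there, so these shares follow in part from the rule. Relative to the medians the class had 1950 genes, 954 higher and 996 lower, and at equal summed RPKM it had 1288, 1037 higher and 251 lower. The class was large on each scale, and its direction turned.

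Genes that separated 18 from 10 °C were fewer and fell into several classes. In 249 genes 10 °C stood apart from both other libraries, 115 higher and 134 lower. In 288 genes 18 °C stood apart, 198 higher and 90 lower. A further 271 genes were stepwise, with all 3 differences at least 2-fold in the same direction, 67 higher and 204 lower at each step from 28 over 18 to 10 °C. In 177 genes all 3 differences were at least 2-fold but 18 °C lay outside the other 2 levels, and in 86 genes the 10 against 18 °C difference alone reached 2-fold. Among the remainder, 300 differed only between 10 and 28 °C, 265 only between 18 and 28 °C, and 1199 nowhere. Where at least 20 reads were required in the highest library, the 28 °C class held 46.2% of 3426 genes, while 10 °C stood apart in 109, 18 °C in 144 and 185 were stepwise.

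**Figure D2:**
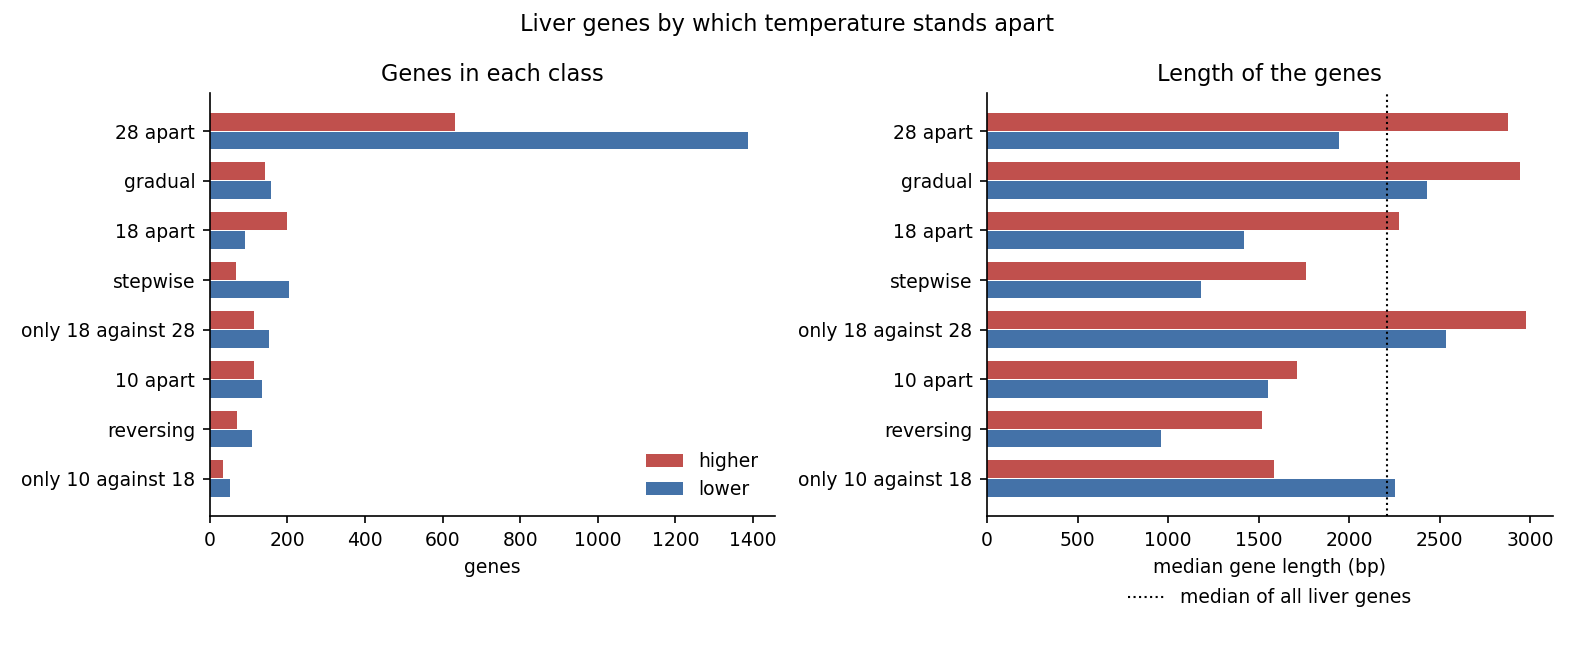
Number of liver genes in each class (left) and their median gene length in bp (right), split by direction. Higher and lower refer to the cold side against 28 °C, to 18 °C against 28 °C where 18 °C stands apart or reverses, and to 10 against 18 °C where only that difference counts; the dotted line is the median length of all liver genes, 2208 bp. The 28 °C class holds 1388 lower and 631 higher genes, and lower genes are shorter than higher ones in every class except where only the 10 against 18 °C difference counts.

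Gene length moved with the classes. The 1388 genes lower in both cold libraries had a median length of 1946 bp and the 631 higher ones 2877 bp, against 2208 bp over all liver genes. The 204 stepwise lower genes were shorter still, at 1184 bp. Over all liver genes the shortest of 4 length groups, up to 1301 bp, had a median difference of -1.37 at 18 against 28 °C whereas for genes from 3547 bp, the longest of these groups, it was 0.03. At 10 against 28 °C these medians were -1.38 and -0.001, whereas at 10 against 18 °C they were 0.04 and -0.03. The 2 comparisons with 28 °C, which share that library, thus both showed a trend with length that the cold libraries did not show between them. With the running median along length removed, the 28 °C class had 1884 genes, 887 higher and 997 lower. That step also removes the overall median difference, which balances the split by construction. Centring on the medians alone, without regard to length, gave 954 higher and 996 lower. The part of length in the split was not tested. 

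In the genes with the largest differences, expression was close to all or none. ENSONIG00000007831 had 7722 reads in the warm liver and 3 and 7 in the 18 and 10 °C livers, an RPKM of 7147, 3.31 and 8.28. At 18 °C its level was 2158-fold lower than at 28 °C, with a 95% exact counting interval of 738 to 10465, and no other tissue exceeded an RPKM of 0.278. Counting intervals cover the reads of these 2 libraries and not the spread between fish. ENSONIG00000008919 had 264 reads at 28 °C and 0 in both cold libraries, at least 73.8-fold lower at 18 °C and 68.9-fold lower at 10 °C when 3 reads per library are taken as the limit of a count of 0. ENSONIG00000022251 had 28, 0 and 0 reads over its 119 bp, at least 7.82-fold and 7.31-fold lower. In liver all 3 genes were thus read almost only at 28 °C, and ENSONIG00000022251 also reached an RPKM of 52.4 in another tissue.

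Other genes were higher in both cold livers. ENSONIG00000013592 had 0, 174 and 202 reads at 28, 18 and 10 °C, at least 69.2-fold and 86.0-fold higher. Kidney expressed this gene at an RPKM of 10.2 to 15.1, below the 47.9 and 59.6 of the cold livers. ENSONIG00000006891 had an RPKM of 5.92 at 28 °C on 17 reads, 137 at 18 °C and 168 at 10 °C, 28.3-fold higher at 10 °C with a counting interval of 17.5 to 49.1. ENSONIG00000021006 was stepwise, with 3, 374 and 746 reads at 28, 18 and 10 °C, and stayed at or below an RPKM of 0.468 in every other tissue. At 10 °C it was 318-fold higher than at 28 °C, with a counting interval of 108 to 1544, and 2.14-fold higher than at 18 °C, with a counting interval of 1.88 to 2.43. ENSONIG00000000044 had 1, 10 and 255 reads, and its 10 °C level was 27.3-fold that at 18 °C, with a counting interval of 14.6 to 57.6.

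Some genes were high at 10 °C alone. ENSONIG00000003615 had 11, 1 and 295 reads at 28, 18 and 10 °C, an RPKM of 14.7, 1.59 and 502, and at most 0.973 in other tissues. ENSONIG00000002670 had 72, 38 and 355 reads, an RPKM of 15.8, 9.97 and 99.8, with a 10 against 18 °C ratio of 10.0 and a counting interval of 7.15 to 14.4. ENSONIG00000022043, only 90 bp long, had 1 read in each of the warmer libraries and 46 at 10 °C, but its RPKM ran from 0 to 193 in kidney and from 97.6 to 1756 in muscle. In the opposite direction, ENSONIG00000019912 had 22, 25 and 0 reads and was at least 5.74-fold lower at 10 than at 28 °C. ENSONIG00000014515 had 75, 70 and 1 reads at 28, 18 and 10 °C, a 58.7-fold lower level at 10 than at 28 °C with a counting interval of 10.2 to 2349.

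**Figure D3:**
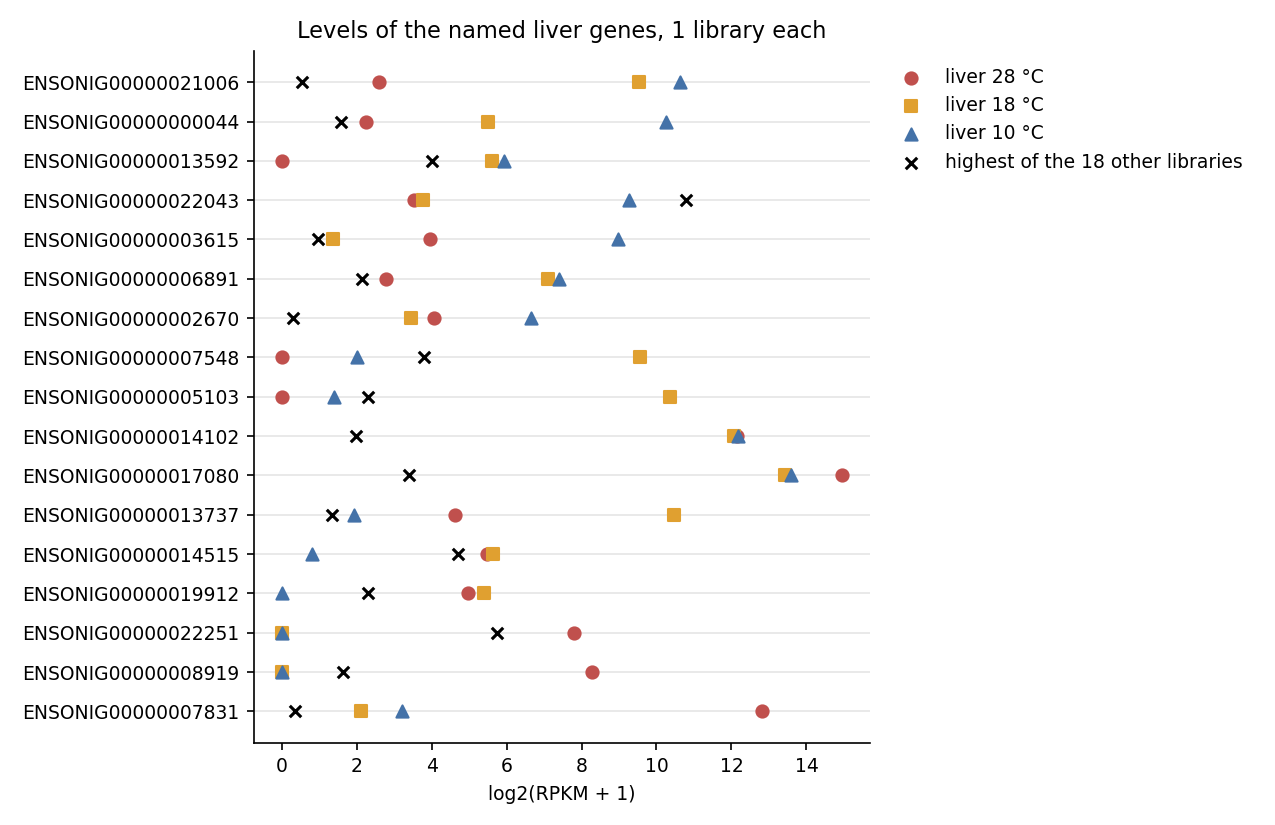
Level of each named gene in the 3 liver libraries as log2(RPKM + 1), 1 library per symbol, with a cross for the highest of the 18 libraries of other tissues; genes are ordered by their 10 against 28 °C difference. ENSONIG00000005103, ENSONIG00000007548 and ENSONIG00000013737 are high at 18 °C alone, and the cross lies above every liver value only for ENSONIG00000022043.

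The 18 °C liver carried a group of genes that was almost absent from both other livers. ENSONIG00000005103 had 0, 2596 and 3 reads at 28, 18 and 10 °C, an RPKM of 1303 at 18 °C. That is at least 1032-fold higher than at 28 °C and 808-fold higher than at 10 °C, with a counting interval of 276 to 3921 for the latter. ENSONIG00000013737 had 43, 2135 and 4 reads and ENSONIG00000007548 had 0, 266 and 1. A rule set after these values were seen, an RPKM of at least 20 and 32-fold above both other livers, found 15 such genes at 18 °C. Together they took 1.70% of reads at 18 °C, on 7786 reads, and 0.003% in each other liver, on 51 reads at 28 °C and 16 at 10 °C. Of the 15, 9 stayed under an RPKM of 5 in all 18 libraries of other tissues, while 2 were above 20 in kidney at all 3 temperatures and 1 in gill. The share under 5 over all liver genes was not counted, so 9 of 15 has no base to be read against. Some also appeared in the 28 °C gill library and hardly in the colder gill libraries. ENSONIG00000014205 had a gill RPKM of 16.6, 0 and 0 at 28, 18 and 10 °C. ENSONIG00000014371 had 6.69, 0 and 0, and ENSONIG00000003948 had 6.23, 0.176 and 0. Others did not, such as ENSONIG00000017608 with 0 in each gill library. ENSONIG00000014371 was 1 of the 2 genes above 20 in kidney, with a kidney RPKM of 1229, 927 and 736 at 28, 18 and 10 °C. Its level in the 18 °C liver was lower, at 125. The same rule found 43 genes at 28 °C, with 6.54% of reads there, and 2 at 10 °C. Of the 43, 17 stayed under an RPKM of 5 in all 18 libraries of other tissues. Which cells of the 18 °C sample carried the 15 genes was not tested.

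Genes marking brain, gill, heart and muscle were mostly at or near 0 in liver, and those of kidney and spleen were not. Genes were listed for each of the 6 tissues at a mean RPKM of 20 or more and 8-fold above the other 5, without regard to liver. The median RPKM in liver was 0 in all 3 libraries for the 163 genes of brain, the 90 of gill and the 207 of muscle. For the 60 genes of heart it was 0.254, 0.294 and 0.0789 at 28, 18 and 10 °C. It was 2.59, 4.49 and 1.52 for the 183 of kidney, and 13.3, 9.43 and 7.78 for the 42 of spleen. A few listed genes were abundant in liver too. The brain list held 5.12%, 1.40% and 1.64% of liver reads at 28, 18 and 10 °C. The kidney list held 4.16%, 3.09% and 2.51%, and the spleen list 4.25%, 1.84% and 2.48%. The muscle list held more in the cold livers, at 1.09%, 1.91% and 1.75%, as did the heart list at 0.0784%, 0.112% and 0.141%. The gill list held 0.0449%, 0.101% and 0.00878%. The part of spleen and kidney genes in the liver differences was not tested.

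Against the other tissues, liver had the largest share of genes that set 28 °C apart. Applied to each tissue's own genes, the class held 41.6% in liver, 23.8% in gill, 19.5% in spleen, 7.54% in muscle, 5.93% in kidney, 3.91% in heart and 1.09% in brain. The liver share had a two-sided p of 0.143 in an exact permutation test of 1 tissue against 6, the smallest value that 7 tissues allow. That test was also run on other measures. For the share differing at 18 against 28 °C, highest in liver too at 62.2%, it gave a two-sided p of 0.286. In brain 10 °C stood apart in 40.9% of genes and in heart 18 °C in 38.0%, so other tissues had a temperature that stood apart as well. Stepwise genes made 5.58% of liver genes and 0.267% to 2.10% elsewhere, again with an exact permutation p of 0.143. The liver share was 1.22% with a pseudocount of 5 and 2.65% with an RPKM of 5 in all 3 livers, settings counted for liver alone. A read in a gene of 1 kb was worth an RPKM of 0.945 to 1.21 in liver and 0.135 to 1.04 in the other tissues. Depth was not matched between tissues. Genes differing between 10 and 18 °C made 22.1% in liver, within the range of 7.42% in gill to 56.0% in heart.

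**Figure D4:**
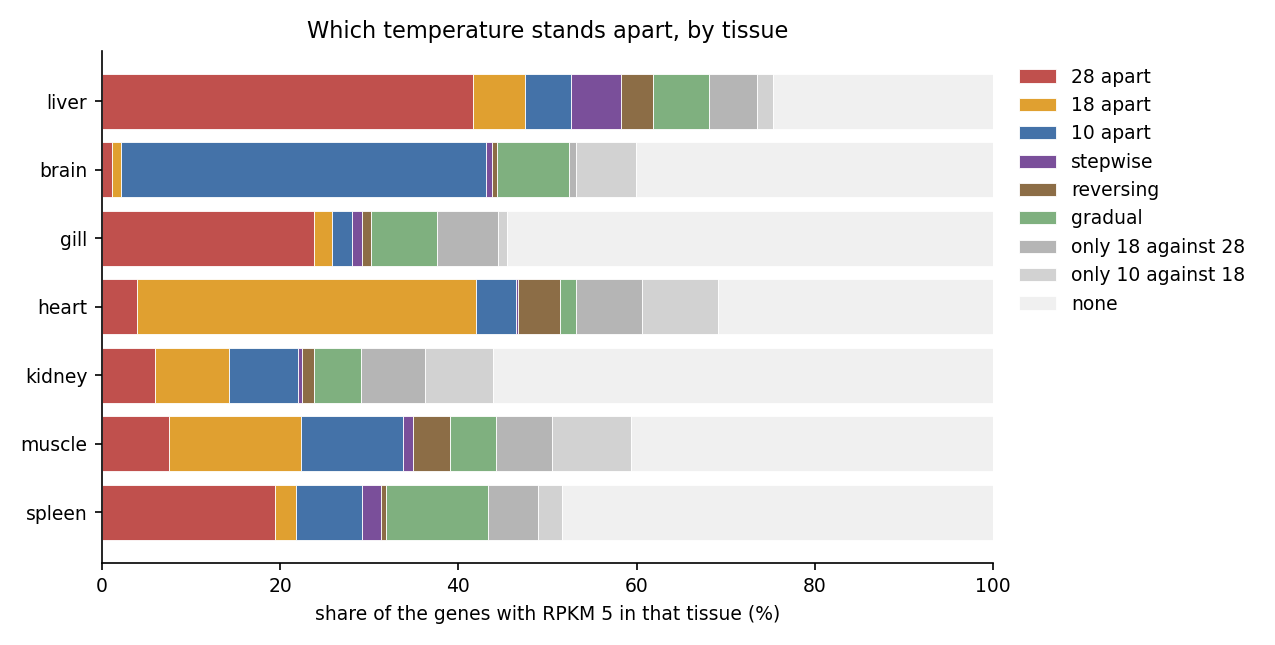
Share of each tissue's genes with an RPKM of 5 (x axis, %) by which temperature stands apart, 1 bar per tissue. The red part, where 28 °C stands apart, is 41.6% in liver, 23.8% in gill and 19.5% in spleen; brain is led by 10 °C and heart by 18 °C.

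Where genes that set 28 °C apart in liver did so in another tissue too, they went the same way more often in spleen and kidney. In gill they went the opposite way more often. The split by direction over all genes of those tissues was not counted, so it gives no base for these splits. Of the 1388 genes lower in cold liver, 738 reached an RPKM of 5 in spleen, with a median difference of -0.44 at 18 and -0.35 at 10 against 28 °C, and all 2718 liver genes expressed there had -0.04 and 0.08. Among these 738 genes, 103 set 28 °C apart in the same direction in spleen and 25 in the opposite one, together 17.3% against 19.5% of all spleen genes. In gill 780 were expressed, with a median of 0.32 and 0.23 against -0.09 and -0.12 for all liver genes there, and 67 set 28 °C apart in the same direction and 124 in the opposite one, together 24.5% against 23.8% of all gill genes. In kidney 828 were expressed, with medians of -0.30 and -0.42 against -0.09 and -0.04, and 70 set 28 °C apart in the same direction and 4 in the opposite one, together 8.94% against 5.93% of all kidney genes. Muscle had medians of -0.31 and 0.11, and 27 against 21 genes. In heart the medians were 1.30 at 18 °C and -0.13 at 10 °C, and all liver genes had 0.60 and -0.10. In brain they were 0.01 and -1.14, and all liver genes had 0.08 and -0.59.

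The 631 genes higher in cold liver likewise differed from tissue to tissue. In spleen 397 were expressed, with medians of 0.42 at 18 and 0.68 at 10 against 28 °C, and 63 set 28 °C apart in the same direction and 10 in the opposite one, together 18.4% against 19.5% of all spleen genes. In gill the 386 expressed genes had medians of -0.66 and -0.70, and 16 went the same way and 104 the opposite way, together 31.1% against 23.8% of all gill genes. Kidney gave 0.19 and 0.27, with 10 genes the same way and 6 the opposite way, together 3.31% against 5.93% of all kidney genes. Muscle gave 0.34 and -0.20, heart -0.43 and -0.06 and brain 0.18 and 0.50. The libraries of different tissues are separate, but tissues of the same fish may be among them.

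Set against the level of the other 6 tissues at the same temperature, the genes lower in cold liver were liver-high at 28 °C and near the other tissues in the cold. Their median difference from the median of those tissues was 2.53 at 28 °C, 0.12 at 18 °C and 0.29 at 10 °C, and over all liver genes it was 1.05, 0.57 and 0.55. Liver was the tissue of highest mean level for 58.3% of them and for 44.7% of all liver genes. The 631 genes higher in cold liver had -0.80, 1.06 and 0.99 at 28, 18 and 10 °C. A gene chosen as high or low at 28 °C in liver is expected to lie on that side of other tissues, so these values describe the classes and test nothing.

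Whether a liver difference lay beyond the spread of the same difference among the other 6 tissues was tested with limma over 15312 genes, 4784 of them liver genes. The model held tissue as a block, temperature as 3 levels and liver-by-temperature terms, with 10 residual degrees of freedom, and p-values were two-sided with Benjamini-Hochberg adjustment over all genes. For 18 against 28 °C, 530 genes passed, 165 (1.08%) with a higher and 365 (2.38%) with a lower difference in liver than in the other tissues. That is 3.46% of all genes tested, and among the liver genes 456 passed, 9.53%. The liver genes were chosen by their level in the same liver libraries that the test compares. A gene nearly absent from those libraries has little liver difference to show. The higher shares among liver genes, here and in the comparisons below, are therefore no separate result. For 10 against 28 °C, 468 genes passed (3.06%), 92 (0.601%) higher and 376 (2.46%) lower, and 420 of the liver genes (8.78%). For 10 against 18 °C, 94 passed (0.614%), 21 (0.137%) higher and 73 (0.477%) lower, and 81 of the liver genes (1.69%). For the mean of both cold libraries against 28 °C, 782 passed (5.11%), 188 (1.23%) higher and 594 (3.88%) lower, and 683 of the liver genes (14.3%).

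These tests share libraries. A fit takes its spread from the 6 tissues it does not single out. The 3 liver libraries are thus part of the spread when another tissue is singled out, and not in the liver fit. Counts per tissue are therefore not like for like. The same test with each other tissue in the place of liver gave fewer genes for each comparison with 28 °C, the nearest being brain with 419 at 10 °C and heart with 67 at 18 °C. For 10 against 18 °C brain had 350 and muscle 169, more than liver. Many liver genes are nearly silent in other tissues and so show little spread there. Among the 1463 genes that reached an RPKM of 5 in each of the 7 tissues, 17 passed at 18 °C (1.16%), 14 at 10 °C (0.957%) and 87 for the cold mean (5.95%). Between 10 and 18 °C 0 passed there by limma, where 22 had an unadjusted p under 0.05 and limma-voom over 15307 genes called 1 (0.00653%). limma-voom on the recovered reads called 28 (0.183%) at 18 °C, 17 higher and 11 lower, 7 (0.0457%) at 10 °C and 27 (0.176%) for the cold mean. Each library was also centred on its median over the 1463 genes that reached an RPKM of 5 in each tissue. Then 202 were higher and 228 lower at 18 °C, and 98 higher and 217 lower at 10 °C. At equal summed RPKM the direction was turned, with 146 higher and 29 lower at 18 °C and 84 higher and 39 lower at 10 °C.

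**Figure D5:**
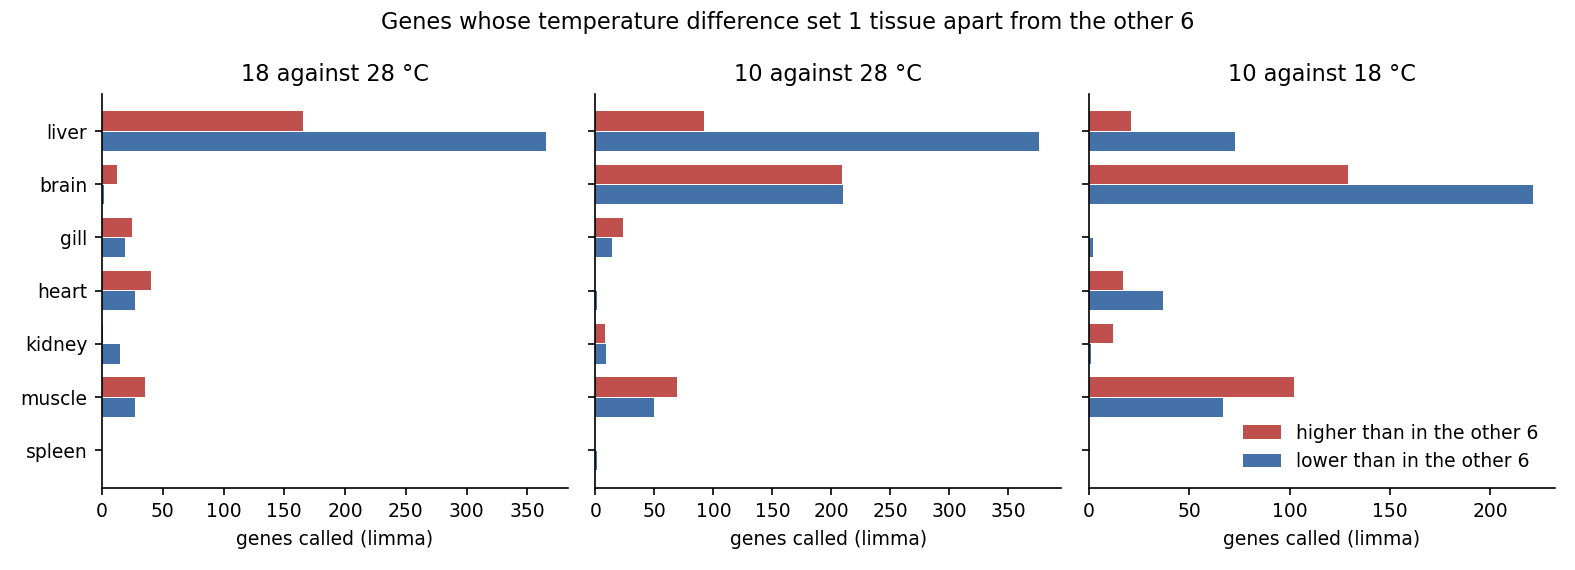
Number of genes (x axis) whose temperature difference in 1 tissue lay above (red) or below (blue) that of the other 6, for 3 comparisons. Genes are counted by limma with adjusted p under 0.05, and the x axes differ between panels. The spread includes the liver libraries in every fit except that of liver, so bars are not like for like. Liver has 530 genes at 18 against 28 °C and 468 at 10 against 28 °C, and brain leads at 10 against 18 °C with 350.

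The test could not judge genes that are silent outside liver. Their spread is then that of tissues without the transcript, and each liver value is 1 library. Of the 15312 genes tested, 131 stayed under an RPKM of 1 in all 18 other libraries. They were tested only because all 3 liver libraries reached that level, and the called genes under 1 given next are among these 131. How many tested genes stayed under 5 was not counted. Of the 468 genes called at 10 against 28 °C, 69 stayed under an RPKM of 1 in all 18 other libraries and 228 under 5. Of the 530 called at 18 against 28 °C, 68 and 244 did, and of the 94 called at 10 against 18 °C, 19 and 54 did. The 2 genes with the lowest adjusted p in each direction at 10 against 28 °C, ENSONIG00000007831, ENSONIG00000006599, ENSONIG00000021006 and ENSONIG00000009667, were of this kind, so their p-values are not given. ENSONIG00000006599 had 1405, 27 and 10 reads at 28, 18 and 10 °C and at most 0.274 RPKM elsewhere. ENSONIG00000009667 had 10, 95 and 173 reads, an RPKM of 5.39, 61.1 and 119, and at most 0.390 elsewhere.

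Some named genes were also expressed in another tissue. The genes below were named for large differences among these same liver libraries, 1 per temperature, so their p-values are not given. ENSONIG00000013592, which kidney expressed, was higher at 10 against 28 °C by 6.05 relative to the other tissues (SE 0.88). ENSONIG00000014515 reached 24.9 RPKM in heart and at most 1.29 in any further tissue. It was lower by -4.38 at 10 against 28 °C (SE 1.08). ENSONIG00000022251 was lower by -7.57 at 10 against 28 °C, with a wide SE of 2.31. ENSONIG00000022043 was higher by 4.21 at 10 against 18 °C, with an SE of 3.18, nearly as large as the difference. Whether these genes passed is not given either, for the same reason.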

How the data were processed

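RNA of 7 tissues at 3 temperatures, 21 libraries in all, was extracted with Trizol and prepared with a TruSeq kit, per the labels' protocols. The authors deposited 1 RPKM value per gene and library, per the file headers. The submitters' processing notes list HTSeq, Bowtie and TopHat. For each tool the role and version, and also the genome build, the annotation and strand handling, are not stated in the labels or file headers. Every column was assigned to a sample by the labels.

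RPKM values were solved for whole reads and gene length in 17089 of 17098 genes. A gene counted as solved only where all its values came out whole within 1e-06. The recovered reads (249169 to 3580607 per library) served for depth, counting intervals (95%, exact) and limma-voom. A count of 0 was given a limit of 3 reads per library. Intervals and limits cover counting error only.

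Differences used log2(RPKM + 1) and a 2-fold limit, with no test within liver. Liver was tested against the other tissues with limma 3.58.1 in R 4.3.3 on genes that reached an RPKM of 1 in 3 or more libraries, adjusted p under 0.05, after tests on simulated data. TMM library sizes were computed from the recovered reads. Alternatives covered pseudocount, filters, fold limit, scaling, gene length and left-out tissues. Named genes are the 2 largest differences each way per comparison and per class (28 or 10 °C apart) with at least 20 reads, the 2 with the highest mean share of reads, and the 2 lowest limma p-values each way. The genes and lists were chosen with earlier results of these data known.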

Additional observations from a re-analysis of the deposited data

Results flagged for a closer look

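By limma's liver-by-temperature term, the temperature difference of liver differed from that of the other 6 tissues in part of the 15312 genes tested. It did so in 468 (3.06%) at 10 against 28 °C, 530 (3.46%) at 18 against 28 °C and 94 (0.614%) at 10 against 18 °C. For the mean of both cold libraries against 28 °C it did so in 782 (5.11%). limma-voom called fewer genes in each comparison. The limma counts above include genes silent outside liver, which could not be judged. Of the genes tested, 131 stayed under an RPKM of 1 in all 18 libraries of other tissues. They entered the test through the liver libraries alone. Class shares, 2-fold shares and median differences, 15 measures in all, were set side by side over the 7 tissues. Of these, 4 had a tissue far from the others by Dixon's criterion, and chance gives about 1 in 20. The measures come from the same 3 differences per tissue and are not independent, so 4 of 15 cannot be judged against that rate. Stepwise genes made 5.58% in liver, and 1.22% there with a pseudocount of 5. Brain had 40.9% of genes with 10 °C apart and 0.725% with a difference only between 18 and 28 °C. Heart had 38.0% of genes with 18 °C apart.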

How the results depend on the processing

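No paired analysis was possible because the labels carry no replicate numbers and each tissue and temperature has 1 library; tissue is already a block in limma. Counts that moved by over 1.5 times are given in the order 18 against 28, 10 against 28 and 10 against 18 °C, then the classes 28 apart, 10 apart, 18 apart and stepwise. An RPKM minimum of 20, with 1934 genes, gave 1408, 1402 and 358, then 1025, 53, 65 and 153. A minimum of 1, with 10091 genes, gave 4954, 4889 and 2459. A minimum of 5 in all 3 livers, with 2039 genes, gave 1025, 1044 and 180, then 792, 48, 37 and 54. A 4-fold limit gave 1498, 1538 and 339, then 1042, 92, 166 and 22. Equal summed RPKM, with 2540 genes, gave 1847, 1658 and 511, then 1288, 87 for 10 °C apart and 89 stepwise. As shares of these totals, 18 against 28 °C gave 72.8% at a minimum of 20 and 49.1% at 1. It gave 50.3% at 5 in all 3 livers and 72.7% at equal summed RPKM, against 62.2% in the main setting. Of the 4854 genes, it gave 42.6% with a pseudocount of 5, on 2067 genes, and 30.9% at a 4-fold limit. The 28 °C class made 53.0% at a minimum of 20, 38.8% at 5 in all 3 livers and 50.7% at equal sums, against 41.6%. With a pseudocount of 5 it made 31.4%, and at a 4-fold limit 21.5%. A pseudocount of 5 gave 434 for 10 against 18 °C, 93 for 10 apart, 183 for 18 apart and 59 stepwise. At least 20 reads gave 564 for 10 against 18 °C, 109 for 10 apart and 144 for 18 apart. The 28 °C class was the largest of the 4 under each of these settings for which classes were counted. Centring and length correction moved no such count by over 1.5 times, nor did TMM scaling for the 3 comparisons, the only counts it was run for.

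The limma counts are given for 18 against 28, 10 against 28, 10 against 18 °C and the cold mean. A pseudocount of 5 gave 1027, 945 and, for the cold mean, 1288. Genes with an RPKM of 5 in every tissue gave 17, 14, 0 and 87, and limma-voom gave 28, 7, 1 and 27. Equal summed RPKM gave 175, 123, 44 and 223. Without any filter 206 passed at 10 against 18 °C. Leaving out 1 tissue gave 58 to 110 at 10 against 18 °C, lowest without spleen, and 513 to 791 for the cold mean, lowest without gill. Without brain at 10, heart at 18 and gill at 28 °C, 774 passed at 10 against 28 °C. ENSONIG00000017080 turned from -1.36 to 0.26 at 10 against 28 °C with equal summed RPKM. For these moves the cause was not tested. Depth limits genes near an RPKM of 5, which rest on few reads.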
